A study of Mus musculus with 20 samples.

Results

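The 10 genes Atf4, Ddit3, Trib3, Asns, Chac1, Nupr1, Sesn2, Xbp1, Hspa5 and Herpud1 of the integrated stress response and the unfolded protein response were read in 20 mouse RNA-seq libraries from 2 experiments that change the level of the Krüppel-like factor Klf5, a DNA-binding regulator of transcription. They were taken by symbol from the 30265 Ensembl genes of each count table, and all 10 were found in both tables and passed the filter on low counts in both. 2 libraries came from Klf5-overexpressing embryonic stem cells (ESCs, a line from C57BL/6J mice kept with LIF on irradiated fibroblast feeders) and 2 from the same line overexpressing GFP. 6 libraries came from single late blastocysts (E4.5) injected with Klf5 siRNA, and 10 from single embryos injected with scramble siRNA; all embryos were grown in KSOM, and their labels write the strain as C57BL/5J. The promoter behind the overexpression, the number of ESC clones and whether ESC replicates were separate cultures are not given in the sources used here, so the ESC p-values measure only the spread between these libraries, which may be technical.

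Cells that lack amino acids, carry unfolded protein in the endoplasmic reticulum (ER), lack haem or sense viral RNA phosphorylate the translation factor eIF2α. Bulk translation then drops while translation of the Atf4 message rises, and Atf4, a bZIP transcription factor, turns on genes of amino acid supply and stress signalling; this is the integrated stress response. Unfolded protein in the ER is also sensed by Ire1, which splices the Xbp1 message into one for an active bZIP factor, and by Atf6, and both raise ER chaperones and degradation factors. Of the 10 genes, Atf4, its bZIP partner Ddit3 (CHOP), the pseudokinase Trib3, asparagine synthetase Asns, the glutathione-degrading enzyme Chac1, the small chromatin-associated protein Nupr1 and the mTORC1 inhibitor Sesn2 make up the Atf4 arm here. Xbp1, Hspa5 (the ER chaperone BiP) and Herpud1 (an ER membrane protein of ER-associated degradation) make up the Xbp1 arm. Gene counts show neither translation of Atf4 nor splicing of Xbp1.

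Sequence elements known for each arm were looked for upstream of the genes, and Herpud1 was the one gene with an element of both. The 250 bases before the RefSeq start of each of the 10 genes (GRCm38.p6, the assembly of mm10) were searched on both strands for 3 elements, chosen with the expression results known. The C/EBP-ATF response element, TGATGNAA, bound by Atf4 with its partners, lay upstream of 4 genes, Asns, Chac1, Nupr1 and Herpud1, and in 3.45% of all 32851 promoter windows of that length. The ER stress response element, CCAAT and CCACG with 9 bases between them, lay upstream of Hspa5 alone among the 10 and in 0.113% of windows. The related ERSE-II, ATTGG and CCACG with 1 base between them, lay upstream of Herpud1 alone among the 10 and in 0.0304% of windows. A match is a run of letters and not a measured site, and windows of the other 5 genes had none of the 3. The 5 windows with a match are printed 5′ to 3′ on the strand of the gene, with the matches in capitals; no matches overlapped.
Nupr1: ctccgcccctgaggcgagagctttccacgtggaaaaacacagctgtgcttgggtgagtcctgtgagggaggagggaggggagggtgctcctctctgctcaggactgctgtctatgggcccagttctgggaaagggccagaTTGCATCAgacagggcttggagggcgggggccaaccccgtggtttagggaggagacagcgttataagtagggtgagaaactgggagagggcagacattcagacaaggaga
Herpud1: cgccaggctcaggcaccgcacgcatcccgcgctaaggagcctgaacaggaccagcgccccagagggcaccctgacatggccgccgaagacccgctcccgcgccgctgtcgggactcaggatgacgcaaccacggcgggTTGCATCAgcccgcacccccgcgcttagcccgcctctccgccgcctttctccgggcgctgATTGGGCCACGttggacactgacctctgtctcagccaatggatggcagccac
Chac1: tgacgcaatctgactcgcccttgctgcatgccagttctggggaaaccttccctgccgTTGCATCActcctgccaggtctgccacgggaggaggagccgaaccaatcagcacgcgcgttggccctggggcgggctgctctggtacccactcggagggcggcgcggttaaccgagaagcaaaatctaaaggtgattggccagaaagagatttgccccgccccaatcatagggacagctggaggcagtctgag
Asns: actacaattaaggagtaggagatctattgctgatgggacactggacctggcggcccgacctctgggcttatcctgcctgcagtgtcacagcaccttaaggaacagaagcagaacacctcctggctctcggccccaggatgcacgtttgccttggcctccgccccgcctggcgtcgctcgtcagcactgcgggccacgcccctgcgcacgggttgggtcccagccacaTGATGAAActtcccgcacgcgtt
Hspa5: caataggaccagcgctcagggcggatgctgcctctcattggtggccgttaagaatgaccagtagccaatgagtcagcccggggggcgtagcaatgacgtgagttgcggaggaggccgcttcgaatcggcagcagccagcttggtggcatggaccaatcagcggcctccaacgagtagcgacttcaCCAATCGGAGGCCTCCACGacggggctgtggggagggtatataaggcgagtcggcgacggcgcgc
These windows lie at chr7:126625471-126625720 (minus strand, Nupr1), chr8:94386179-94386428 (plus, Herpud1), chr2:119350992-119351241 (plus, Chac1), chr6:7693210-7693459 (minus, Asns) and chr2:34771840-34772089 (plus, Hspa5). In Herpud1 the element shared with Nupr1 and Chac1 began at base −112 and the ERSE-II at base −52, counted back from the transcript start.

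The libraries held 34643461 and 37482631 counts in Klf5 ESCs, 26775363 and 36915688 in GFP ESCs, 14945889 to 23367416 after Klf5 siRNA and 14701519 to 24939629 after scramble siRNA. Levels are given as CPM, counts scaled to a common library size. Where a gene has 0 counts, up to 3 counts are possible from counting error alone. These are at most 0.204 CPM of the unscaled total of any library. The scaling factors of the Klf5 siRNA embryos were 0.760 to 0.992, so 3 counts are a higher CPM there. Klf5 itself averaged 912 ± 42.7 CPM in Klf5 ESCs and 75.6 ± 6.83 CPM in GFP ESCs (SD, n = 2 each), and 223 ± 174 CPM in Klf5 siRNA embryos (n = 6) and 469 ± 65.7 CPM in scramble embryos (n = 10). The embryo labelled Klf5 siRNA 1 went against its label with 543 CPM, inside the scramble range of 382 to 592 CPM, and was kept. Pluripotency markers were present in every group, with summed levels of 6437 and 7166 CPM in Klf5 ESCs against 5654 and 5700 CPM in GFP ESCs. Fibroblast markers, which feeders carry, summed to 1831 and 1972 CPM in Klf5 ESCs against 1513 and 1560 CPM in GFP ESCs. Of 7 tested, 1 rose with edgeR, Col1a2, and none fell. At an unadjusted p under 0.05, 4 were higher and 0 lower, and DESeq2 called 3 higher and limma voom 0. Vim, with the highest level of the list, was not called (803 against 852 CPM). In embryos trophectoderm markers summed to 196 to 2366 CPM after Klf5 siRNA and 2176 to 8362 CPM after scramble siRNA (7 of 8 fell), and primitive endoderm markers to 241 to 498 CPM and 342 to 627 CPM (2 of 8 fell). Pluripotency markers summed to 6125 to 16945 CPM after Klf5 siRNA and 3707 to 11675 CPM after scramble siRNA. The single genes were mixed, with 3 of 8 fold changes above 0 and 5 below (median log2 fold change −0.55). None of the 8 passed with edgeR. At an unadjusted p under 0.05 Pou5f1 and Nanog were higher and Esrrb lower, and DESeq2 called 0 and limma voom 1 higher. A whole embryo is a bulk sample, in which fewer cells of a type and less RNA per cell cannot be told apart.

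Mitochondrial transcripts took 2.45 to 10.3% of counts after Klf5 siRNA and 4.34 to 18.5% after scramble siRNA, and ribosomal protein transcripts 7.45 to 13.8% and 3.65 to 9.07%. All Klf5 siRNA libraries carry higher library numbers (11, 12, 15, 16, 17 and 19) than the scramble libraries (1 to 10), so that the siRNA cannot be told apart from the order of the libraries. The numbers missing between 11 and 19 are not among the 20 libraries. Scramble embryos 5 and 6 stood apart with the lowest ribosomal protein shares of their group, 3.65 and 4.79%, and the highest scaling factors, 1.33 and 1.23, and Klf5 siRNA embryo 4 had the fewest genes with a count, 13114. These differences accompany every embryo result that follows, and their part in it was not tested beyond the fits named beside a value or in the closing section.

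In embryos the Atf4 arm was lower after Klf5 siRNA. Nupr1, Trib3 and Atf4 of its 7 genes fell, Herpud1 of the Xbp1 arm fell with them, and Xbp1 lay on the other side, higher in most Klf5 siRNA embryos without passing the test. In all 4 of 10 genes fell, where 7.74% of the 12385 genes tested fell, and none rose, where 12.0% did (edgeR quasi-likelihood test, adjusted p under 0.05). With scaling by total counts the split over all genes was 745 higher of 2927 called, against 1489 of 2447 here. At an unadjusted p under 0.05, 5 fell and 1, Xbp1, rose; DESeq2 called 5 lower and 0 higher, and limma voom 3 lower and 0 higher. All 7 Atf4 arm genes had a fold change below 0, with a median log2 fold change of −1.31, against a median of −0.01 over all genes tested. The arm's median was −0.75 without scramble 5 and 6 and −1.97 with the mitochondrial percent as a covariate, and 3 and 4 of its 7 genes fell in these fits.

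Nupr1, which takes part in the cell's answer to several kinds of stress, separated the groups. It ranged over 0.291 to 23.8 CPM (median 2.78) in Klf5 siRNA embryos and over 24.7 to 93.0 CPM (median 60.8) in scramble embryos. All 6 Klf5 siRNA embryos lay below all 10 scramble embryos. Of all genes tested 1.91% were separated in this direction and 2.91% in the other (4.81% in all), and none of the other 9 of the 10 genes was. Nupr1 averaged 6.09 ± 8.90 CPM against 60.1 ± 20.9 CPM, a 9.86-fold lower level (log2 fold change −3.30 ± 0.67 SE, edgeR adjusted p = 0.00210). The adjusted p stayed at or below 0.0149 in all 30 alternative fits. The embryo labelled Klf5 siRNA 1, with Klf5 at the scramble level, held 1.63 CPM of Nupr1.

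Trib3, a pseudokinase induced by Atf4 that dampens Atf4 activity, ranged over 0 to 2.49 CPM (median 1.17) in Klf5 siRNA embryos and 0.0536 to 24.8 CPM (median 7.67) in scramble embryos. 9 of 10 scramble embryos lay above all Klf5 siRNA embryos, and the other one, scramble embryo 3, had 1 count, as did Klf5 siRNA embryo 4, while Klf5 siRNA embryo 2 had 0. Trib3 averaged 1.07 ± 0.956 CPM after Klf5 siRNA and 9.55 ± 7.55 CPM after scramble siRNA, 8.91-fold lower (log2 fold change −3.16 ± 0.91 SE, edgeR adjusted p = 0.0197). With limma voom the call was lost (−3.64, adjusted p = 0.126). It was also lost in the fits of 12 embryos of the closing section, with an edgeR adjusted p of up to 0.164.

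Atf4 itself ranged over 48.5 to 109.9 CPM (median 66.3) in Klf5 siRNA embryos and 59.0 to 166 CPM (median 126) in scramble embryos. All 6 Klf5 siRNA embryos lay below the scramble median, and 6 scramble embryos lay above all Klf5 siRNA embryos. The mean was 73.5 ± 21.8 CPM against 125 ± 32.3 CPM, 1.70-fold lower (log2 fold change −0.77 ± 0.24 SE, edgeR adjusted p = 0.0297). This call was close to the threshold and did not hold when Klf5 siRNA 1 (adjusted p = 0.0506), 2 (0.0541), 3 (0.0583) or scramble 2 (0.0507) was left out, with log2 fold changes between −0.75 and −0.70. In all it was lost in 6 of 30 alternative fits, with an edgeR adjusted p of up to 0.189. The further losses came in the fits of 12 embryos of the closing section, with and without a replicate block.

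Herpud1 went with the Atf4 arm. It carries an Atf4-type element and an ERSE-II in the printed window, and their part was not tested. Of the other genes with the Atf4-type element, Nupr1 fell and Asns and Chac1 did not pass, while Trib3 and Atf4 fell without it. Herpud1 ranged over 1.29 to 12.2 CPM (median 6.17) in Klf5 siRNA embryos and 5.19 to 67.8 CPM (median 19.8) in scramble embryos, and 8 of 10 scramble embryos lay above all Klf5 siRNA embryos. The mean of 6.34 ± 3.50 CPM stood against 24.3 ± 18.7 CPM, 3.83-fold lower (log2 fold change −1.94 ± 0.52 SE, edgeR adjusted p = 0.0130). With the number of detected genes as a covariate it missed the threshold (−1.57, adjusted p = 0.0607). With the replicate block of the closing section it missed it by more (edgeR adjusted p = 0.133).

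The other 4 genes of the Atf4 arm did not pass. Asns, which makes asparagine, ranged over 6.55 to 94.0 CPM (median 70.1) in Klf5 siRNA embryos and 65.5 to 448 CPM (median 94.1) in scramble embryos, with a log2 fold change of −1.31 ± 0.50 SE (edgeR adjusted p = 0.0741). All 6 Klf5 siRNA embryos lay below the scramble median, and the value was −0.71 without scramble 5 and 6 (adjusted p = 0.194). Asns passed with the mitochondrial percent as a covariate (−1.97, adjusted p = 0.00940), with DESeq2 (−1.30, 0.0390) and with scaling by total counts (−1.79, 0.0266). Ddit3, a bZIP factor that promotes cell death under lasting stress, ranged over 16.6 to 73.9 CPM (median 22.5) against 5.47 to 114 CPM (median 46.3), with overlapping groups (−0.77 ± 0.51 SE, adjusted p = 0.314). Its gene overlaps Mars on the opposite strand, and reads of the 2 genes cannot be told apart where a library does not keep strand.

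Chac1 was at or near the limit of counting. 3 of 6 Klf5 siRNA embryos and 2 of 10 scramble embryos had 0 counts, and the highest values were 2.89 and 11.9 CPM (log2 fold change −2.02 ± 1.34 SE, edgeR adjusted p = 0.310). Sesn2, an inhibitor of mTORC1 when leucine is scarce, ranged over 7.99 to 16.6 CPM (median 10.2) in Klf5 siRNA embryos and 9.78 to 25.3 CPM (median 13.1) in scramble embryos (−0.35 ± 0.29 SE, adjusted p = 0.432). The SE of these genes leaves room for differences of the size seen in Atf4, so their misses do not show equal levels.

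**Figure D1:**
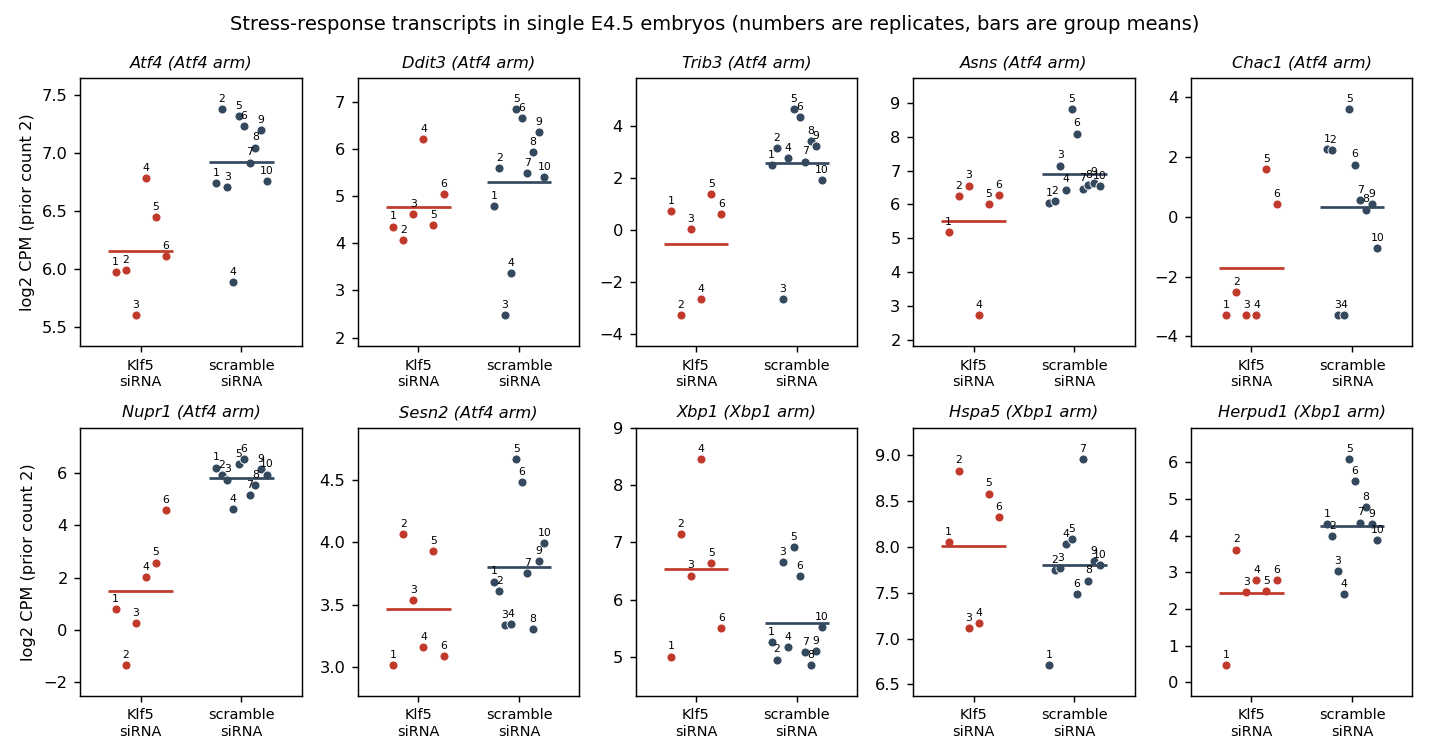
Each panel plots log2 CPM (prior count 2) of 1 gene in the 6 Klf5 siRNA embryos (left, red) and the 10 scramble embryos (right, blue); numbers are replicates and bars are group means. Nupr1 alone has groups that do not overlap (0.291 to 23.8 against 24.7 to 93.0 CPM), and Xbp1 reaches its highest value, 352 CPM, in Klf5 siRNA embryo 4.

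Xbp1 pointed the other way. It ranged over 31.96 to 352 CPM (median 92.3) in Klf5 siRNA embryos and 28.9 to 121 CPM (median 37.0) in scramble embryos. 5 of 6 Klf5 siRNA embryos lay above the scramble median and 2 above all scramble embryos. The mean was 126 ± 118 CPM against 55.4 ± 33.7 CPM (log2 fold change 1.18 ± 0.44 SE, edgeR adjusted p = 0.0667). The value depended on single libraries. It was 0.51 without Klf5 siRNA 4 (adjusted p = 0.401) and 0.25 without Klf5 siRNA 2 and 4 (0.749), and it passed without Klf5 siRNA 1 (1.36, 0.0323), Klf5 siRNA 6 (1.33, 0.0466) or scramble 5 (1.39, 0.0297), without scramble 5 and 6 together (1.48, 0.0230) and with an offset for gene length (1.36, 0.0360). It was 0.76 with the mitochondrial percent (0.359) and 0.75 with detected genes (0.335) as a covariate.

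Hspa5, the chaperone that holds the ER stress sensors inactive, ranged over 139 to 456 CPM (median 293) in Klf5 siRNA embryos and 105 to 498 CPM (median 221) in scramble embryos. The groups overlapped almost fully (log2 fold change 0.25 ± 0.30 SE, edgeR adjusted p = 0.606), and the sign turned with scaling by total counts (−0.17). That scaling put the median of all genes at −0.43, and relative to this median Hspa5 lay at 0.26, Xbp1 at 1.17, Atf4 at −0.77 and Nupr1 at −3.40.

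Because Xbp1 and Atf4 were read in the same library, their ratio needs no scaling between libraries. There were 0.509 to 3.20 counts of Xbp1 for each count of Atf4 after Klf5 siRNA (median 1.45) and 0.186 to 0.966 after scramble siRNA (median 0.390). 4 of the 6 Klf5 siRNA embryos lay above all scramble embryos, and embryos 1 and 6 lay inside their range. In ESCs the same ratio stood at 0.147 and 0.133 in Klf5 cells against 0.0496 and 0.0662 in GFP cells. These ratios are given as a description with no test, since the pair was picked with the results known.

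The level of each arm was taken as the mean log2 CPM of its genes minus the scramble mean. The Atf4 arm lay between −2.63 and −0.76 after Klf5 siRNA and between −1.74 and 1.51 after scramble siRNA. The Xbp1 arm lay between −1.38 and 0.65, and between −0.68 and 1.14, with medians of −0.17 after Klf5 siRNA and −0.13 after scramble siRNA. The Atf4 arm minus the Xbp1 arm lay between −3.28 and −0.44 and between −1.67 and 0.66, and only Klf5 siRNA embryos 2 and 4 lay outside the scramble range. Klf5 siRNA embryos 2 and 4 combined a low Atf4 arm (−2.63 and −2.38) with an Xbp1 arm above 0 (0.65 and 0.25). Both Xbp1 arm values lay inside the scramble range. In embryo 4 the value came from Xbp1 alone (352 CPM). Its Hspa5 (144 CPM) and Herpud1 (6.83 CPM) lay below the scramble medians of 221 and 19.8 CPM. In embryo 2 Xbp1 (142 CPM) and Hspa5 (456 CPM) lay above their scramble medians and Herpud1 (12.2 CPM) below. Klf5 siRNA embryo 1 was low in both arms (−2.13 and −1.38). Scramble embryos 5 and 6 were the highest of all in the Atf4 arm, at 1.51 and 1.06, and scramble embryos 3 and 4 lay at −1.74 and −1.21, inside the range of the Klf5 siRNA embryos. The arm level weighs all its genes alike, also Trib3 and Chac1, which had few or no counts in some embryos. Klf5 siRNA embryo 4 had 1 count of Trib3 and 0 of Chac1. Its Atf4 (110 CPM) and Ddit3 (73.9 CPM) were the highest of its group. Scramble embryo 3 also had 1 count of Trib3 and 0 of Chac1.

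**Figure D2:**
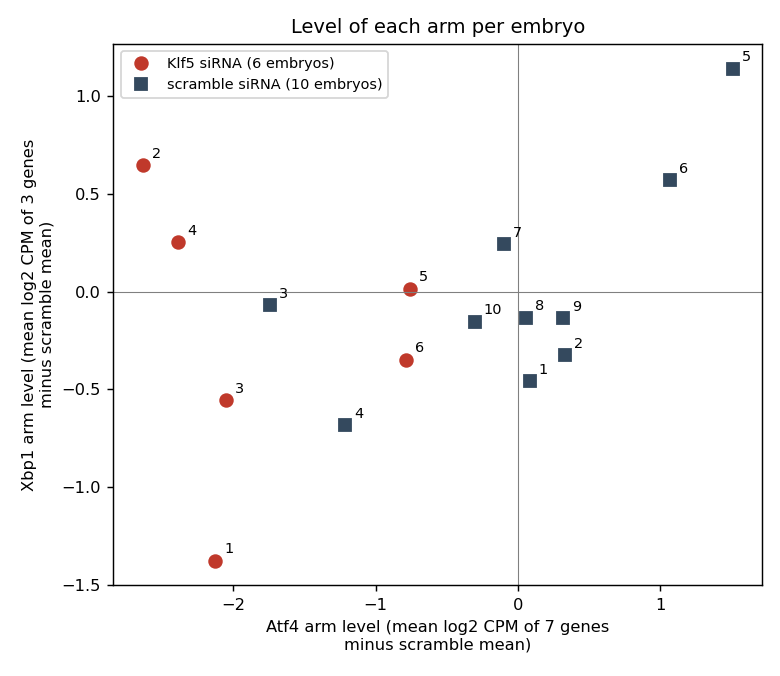
Each point is 1 embryo, with the Atf4 arm level (7 genes) on the x axis and the Xbp1 arm level (3 genes) on the y axis, both as mean log2 CPM minus the scramble mean. Klf5 siRNA embryos (red circles) lie between −2.63 and −0.76 on the x axis, scramble embryos (blue squares) between −1.74 and 1.51, and the groups overlap on the y axis.

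Within the 10 scramble embryos the Atf4 arm genes varied together. All 21 pairs had a Pearson r above 0 (median 0.65), and Herpud1 followed all 7 (r between 0.65 and 0.87, 0.87 with Ddit3), whereas Hspa5 followed none closely (r between −0.51 and 0.13). These points share library, depth and scaling, and much of the pattern rested on scramble embryos 5 and 6. Without them 14 of 21 pairs had r above 0 (median 0.38). The median r of Herpud1 with the arm was then 0.53, from −0.31 with Asns to 0.84 with Ddit3. Xbp1 had a median r of 0.18 with the 7 genes in the 10 embryos and −0.24 in the 8. These values ranged widely, from −0.19 with Trib3 to 0.87 with Asns in the 10, and from −0.99 with Trib3 to 0.73 with Asns in the 8. In the 6 Klf5 siRNA embryos 11 of 21 pairs had r above 0, with a median of 0.26.

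The genes outside the lists most like the Atf4 arm over the 16 embryos, after the group means were taken out, were Grn (r = 0.90), which encodes the lysosomal protein progranulin, the proteasome subunit gene Psmd2 (0.86), Pi4k2a (0.84), Retreg3 (0.83) and Smarcb1 (0.83). Without scramble 5 and 6 these values lay between 0.73 and 0.87. Most like the Xbp1 arm were Fbxw2 (0.88), Bambi (0.87), Ppa1 (0.86), Ppp2ca (0.85) and Hbp1 (0.84). These 10 are the top of 12385 genes searched and are named for likeness only.

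Other genes of the same pathway were counted from lists, each against the 7.74% of all genes that fell and the 12.0% that rose in embryos. Of 12 tRNA synthetase genes, a class that Atf4 raises, 8 fell and none rose (median log2 fold change −1.06; at an unadjusted p under 0.05, 10 fell and none rose, and DESeq2 and limma voom called 8 and 7 lower and none higher). Gars fell 2.97-fold, to 77.8 ± 20.3 CPM in Klf5 siRNA embryos against 231 ± 85.6 CPM in scramble embryos, Iars 2.83-fold, Aars 2.39-fold and Nars 2.16-fold, encoding the glycine, isoleucine, alanine and asparagine enzymes. All 12 had a fold change below 0. The count of falling genes was 5 with an offset for gene length, 4 with detected genes as a covariate, 6 without scramble 5 and 6, 5 without Klf5 siRNA 2 and 4 and 8 without Klf5 siRNA 1.

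Of 19 tested genes of amino acid synthesis and uptake that Atf4 is known to raise, 5 fell and 1 rose (median −1.12). Pycr1 fell 17.9-fold, to 1.33 ± 0.998 CPM in Klf5 siRNA embryos against 23.8 ± 17.6 CPM in scramble embryos, and Aldh18a1 4.96-fold (to 9.08 CPM against 45.1 CPM); both encode enzymes of proline synthesis. Slc7a5, the large neutral amino acid transporter gene, fell 6.32-fold. Cth, encoding cystathionine γ-lyase of cysteine synthesis, went against the list and rose 3.01-fold (139 ± 49.9 CPM against 46.1 ± 28.1 CPM). 6 fell without scramble 5 and 6 and also without Klf5 siRNA 2 and 4, and 9 fell and none rose with the mitochondrial percent as a covariate.

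Other stress targets of Atf4 moved both ways, with 4 of 10 tested rising and 2 falling (median 0.63). Map1lc3b, an autophagosome gene, rose 4.51-fold, Eif4ebp1, encoding a translation inhibitor, 2.81-fold and Sqstm1, an autophagy receptor gene, 1.81-fold, while Ndrg1, a stress-responsive gene, fell 4.02-fold. Among 6 tested bZIP partners Jdp2, encoding a repressor of the AP-1 family, fell 8.52-fold (1.03 ± 1.25 CPM in Klf5 siRNA embryos against 8.76 ± 6.75 CPM in scramble embryos) and none rose, also none at an unadjusted p under 0.05, with DESeq2 or with limma voom. Among 14 genes of the eIF2α kinases, phosphatases, eIF2 and eIF2B and their regulators, Ppp1r15b, encoding the constitutive partner of the eIF2α phosphatase, fell 2.17-fold and Impact, encoding an inhibitor of the kinase Gcn2, rose 2.67-fold (median 0.18; 4 rose without scramble 5 and 6 and none without Klf5 siRNA 2 and 4).

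The lists of the ER were counted in the same way, and no difference between lists was tested. Of 18 genes of ER chaperones and folding enzymes 4 rose and 1 fell (median 0.20). Manf, encoding a small ER-resident factor released under ER stress, rose 4.05-fold, to 326 ± 130.2 CPM in Klf5 siRNA embryos against 80.6 ± 29.5 CPM in scramble embryos. Dnajb9, an ER co-chaperone gene that Xbp1 is known to drive, rose 4.25-fold (33.8 ± 24.8 CPM against 7.94 ± 4.05 CPM), Sdf2l1 3.03-fold and Fkbp2 2.26-fold. The 1 that fell, named after its value was seen, was Canx, encoding the lectin chaperone calnexin, 2.46-fold. With an offset for gene length Sdf2l1 missed the threshold (1.02, adjusted p = 0.0582) while Manf, Dnajb9 and Fkbp2 kept their calls (2.12, 1.99 and 0.74).

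Of 19 tested genes of ER-associated degradation and translocation, Derl2, a retrotranslocation factor gene that Xbp1 is known to raise, rose 2.31-fold and Sec62 2.14-fold, and Sec63 fell 1.69-fold, a call lost with an offset for gene length (adjusted p = 0.218; list median 0.24). These counts, 2 higher and 1 lower of 19, lay near the 12.0% and 7.74% of all genes tested. None of 8 tested sensors and activators passed, at an unadjusted p under 0.05, with DESeq2 or with limma voom either; Creb3l2 had the smallest p (log2 fold change 0.89 ± 0.67 SE, edgeR adjusted p = 0.376).

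**Figure D3:**
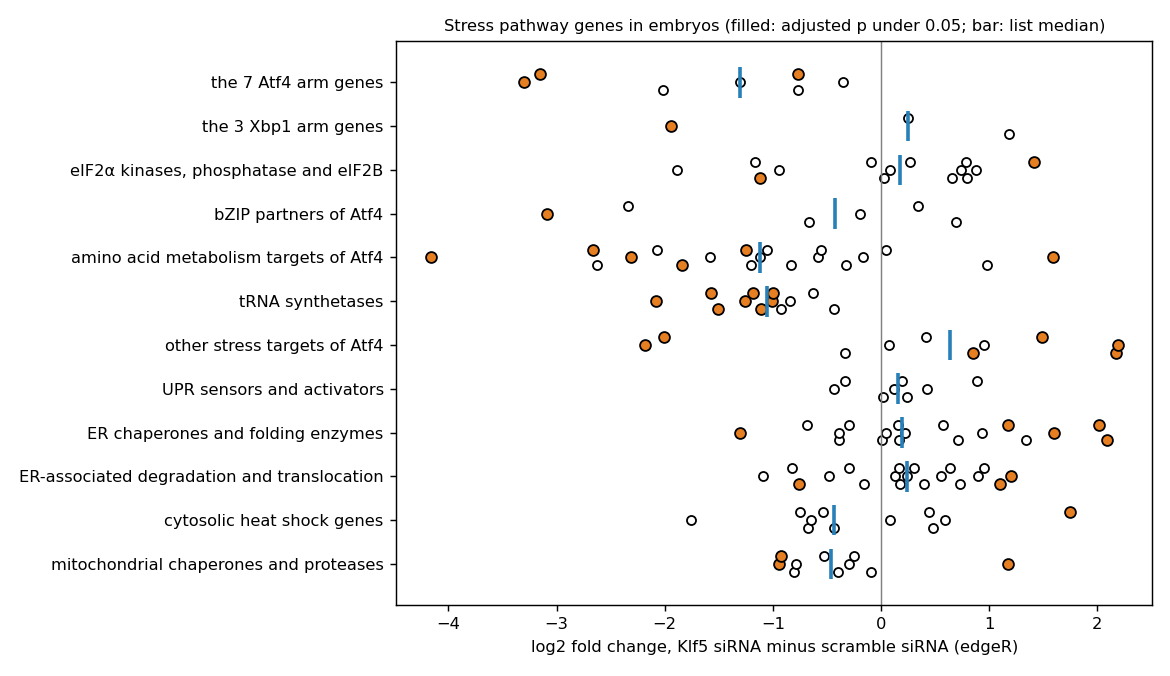
Each point is 1 tested gene of a stress pathway list, placed by its log2 fold change between Klf5 siRNA and scramble embryos; filled points passed an adjusted p of 0.05 and blue bars are list medians. The median is −1.31 for the Atf4 arm genes, −1.12 for amino acid metabolism and −1.06 for tRNA synthetases, against 0.20 for ER chaperones and folding enzymes.

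In ESCs the Atf4 arm held no call, and Xbp1 alone among the 10 genes passed. 1 of 10 rose, where 1.67% of 15968 genes tested rose, and none fell, where 1.11% did; at an unadjusted p under 0.05 Xbp1 rose and Sesn2 fell, DESeq2 called these same genes, and limma voom called Xbp1 alone. Xbp1 stood at 47.6 and 53.8 CPM in Klf5 ESCs against 23.4 and 25.6 CPM in GFP ESCs. The groups did not overlap, as was so for 56.4% of the genes tested (28.9% higher and 27.4% lower). Xbp1 rose 2.07-fold, to a mean of 50.7 ± 4.37 CPM in Klf5 ESCs against 24.5 ± 1.57 CPM in GFP ESCs (log2 fold change 1.05 ± 0.13 SE, edgeR adjusted p = 0.0285). It kept its call in 13 of 14 alternatives and lost it without GFP 1 (0.98, adjusted p = 0.151). Primitive endoderm markers were higher in the same cells, with sums of 138 and 307 CPM in Klf5 ESCs against 46.1 and 50.2 CPM in GFP ESCs (4 of 8 rose). Trophectoderm markers summed to 257 and 613 CPM against 804 and 1716 CPM, mostly from Krt8 (means 189 against 600 CPM) and Krt18 (130 against 541 CPM). The list was mixed, with 3 of 8 fold changes above 0 and 5 below. None of the 8 passed with edgeR. At an unadjusted p under 0.05 Eomes was higher and Gata3 and Fgfr2 lower, and DESeq2 called 1 lower and limma voom 0. The fibroblast marker sum was also higher (1831 and 1972 CPM in Klf5 ESCs against 1513 and 1560 CPM in GFP ESCs). Col1a2 of that list rose 1.72-fold (edgeR adjusted p = 0.0347). The part of these marker differences in the Xbp1 result was not tested.

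Sesn2 stood at 209 and 274 CPM in Klf5 ESCs against 448 and 340 CPM in GFP ESCs, the other of the 10 whose groups did not overlap. Its log2 fold change was −0.71 ± 0.19 SE (edgeR adjusted p = 0.0875), and it passed with DESeq2 (adjusted p = 0.00505) and without Klf5 2 (0.0430). Ddit3 stood at 107 and 208 CPM against 276 and 196 CPM (−0.58 ± 0.38 SE, adjusted p = 0.423), and passed without Klf5 2 (−1.14, 0.0472). Atf4 stood at 323 and 403 CPM against 471 and 387 CPM (−0.24 ± 0.16 SE, adjusted p = 0.395).

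Klf5 1 was the lowest of the 4 ESC libraries for 8 of the 10 genes. Trib3 held 38.8 and 72.1 CPM in Klf5 ESCs against 73.1 and 56.5 CPM in GFP ESCs, Herpud1 40.7 and 80.4 CPM against 76.2 and 56.5 CPM, and Hspa5 642 and 903 CPM against 935 and 820 CPM. Chac1 held 11.6 and 26.4 CPM against 23.5 and 15.4 CPM, and Nupr1 50.9 and 79.0 CPM against 71.1 and 60.8 CPM. The Atf4 arm level was −0.61 and 0.03 in Klf5 1 and 2, against 0.18 and −0.18 in GFP 1 and 2. Asns was even across libraries, with 138 and 148 CPM against 152 and 132 CPM (0.01 ± 0.12 SE, edgeR adjusted p = 0.967).

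**Figure D4:**
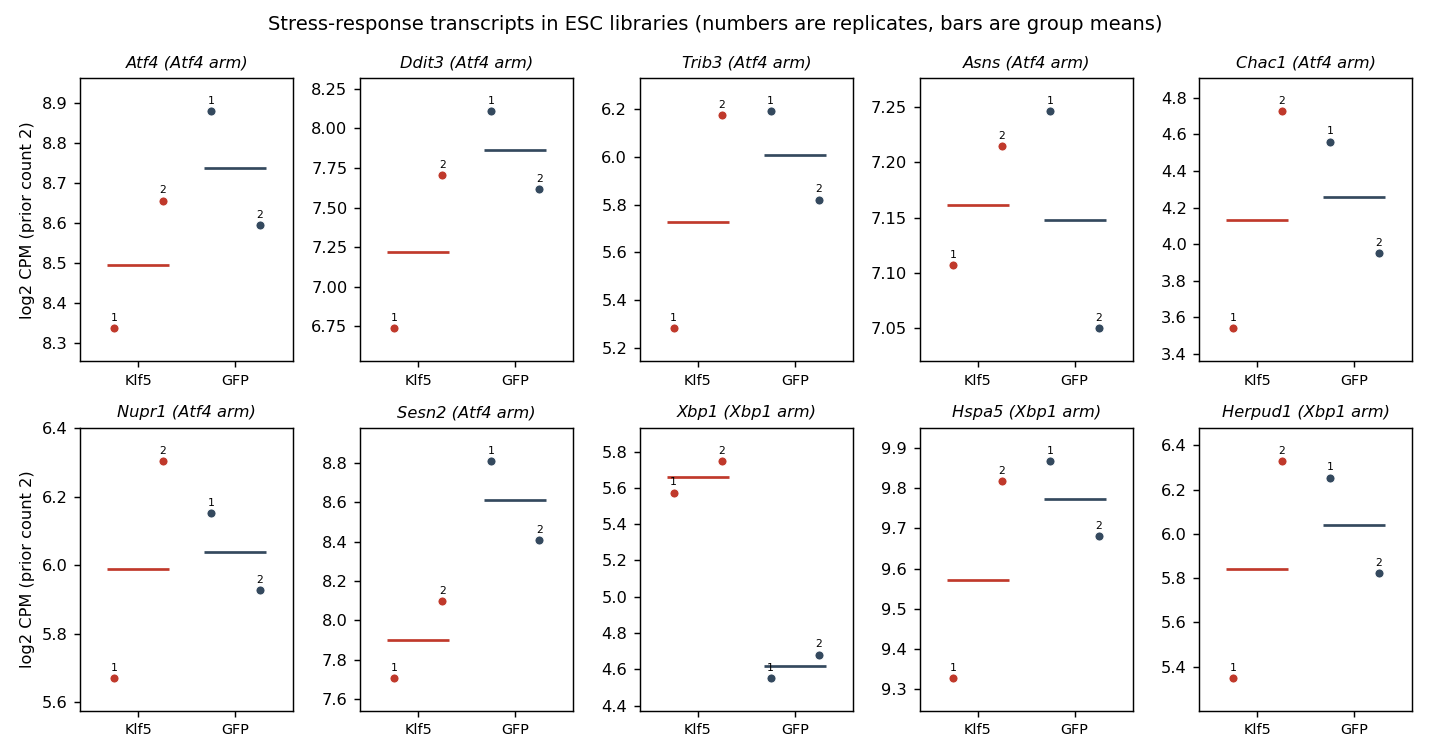
Each panel plots log2 CPM (prior count 2) of 1 gene in the 2 Klf5 ESC libraries (left, red) and the 2 GFP ESC libraries (right, blue); numbers are replicates and bars are group means. Xbp1 (47.6 and 53.8 against 23.4 and 25.6 CPM) and Sesn2 (209 and 274 against 448 and 340 CPM) have groups that do not overlap.

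In ESCs few genes of the pathway lists passed the edgeR test. 1 of 21 amino acid genes rose (4 at an unadjusted p under 0.05 and with DESeq2, 0 with limma voom), Slc7a1, encoding a cationic amino acid transporter, at 1.57-fold, and 1 fell (1 with DESeq2, 0 with limma voom), Slc38a2, a neutral amino acid transporter gene, at 1.88-fold (69.6 ± 11.7 CPM in Klf5 ESCs against 131 ± 1.12 CPM in GFP ESCs). None of 12 tRNA synthetase genes passed (1 at an unadjusted p under 0.05 and 1 with DESeq2, Wars at a log2 fold change of 0.41 ± 0.11 SE, edgeR adjusted p = 0.0887; 0 with limma voom). None of 18 ER chaperone and folding genes passed either (5 at an unadjusted p under 0.05, 4 of them lower, and 2 lower with DESeq2, led by Dnajc3 at −0.47 ± 0.12 SE, edgeR adjusted p = 0.0854; 0 with limma voom). None of 20 ER-associated degradation genes passed with edgeR (3 at an unadjusted p under 0.05, 2 of them lower, and 2 lower with DESeq2; 0 with limma voom), with Derl3 at −0.68 ± 0.15 SE (edgeR adjusted p = 0.0632).

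**Figure D5:**
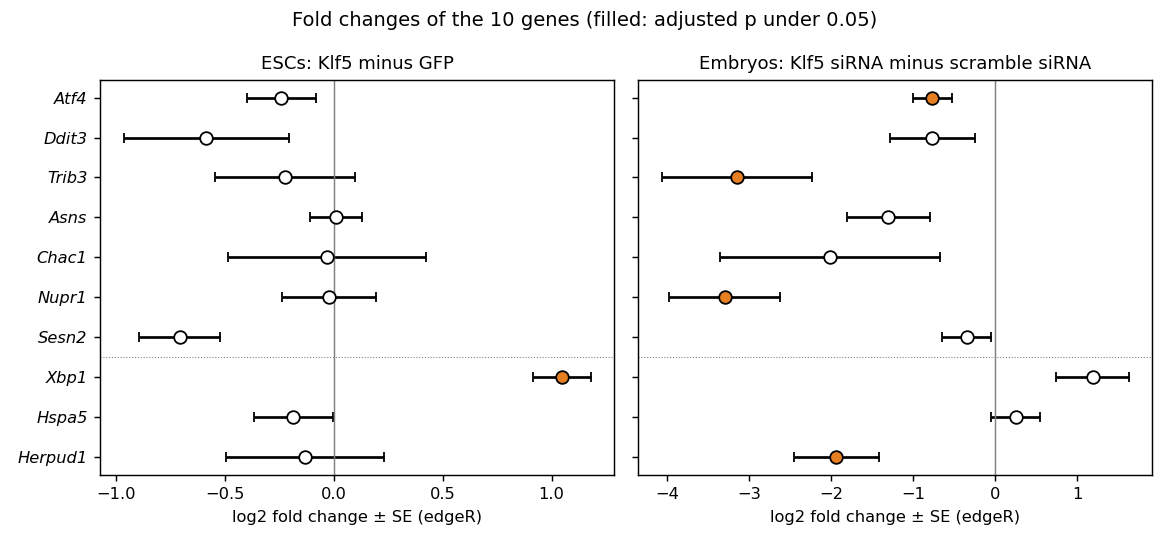
Log2 fold changes ± SE of the 10 genes, with the Atf4 arm above the dotted line and the Xbp1 arm under it, for Klf5 minus GFP in ESCs (left) and Klf5 siRNA minus scramble siRNA in embryos (right); filled points passed an adjusted p of 0.05. Xbp1 lies at 1.05 in ESCs and 1.18 in embryos, and Nupr1 at −0.02 and −3.30.

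Xbp1 thus had a fold change above 0 both with raised Klf5 in ESCs and after Klf5 siRNA in embryos, while genes of the Atf4 arm passed the edgeR test with all libraries in embryos (3 of 7) and not in ESCs (0 of 7, with 1 at an unadjusted p under 0.05, 1 with DESeq2 and 0 with limma voom). Whether the experiments differ was not tested; their kits, material and spread were not alike. Levels per kilobase used all annotated exons of a gene joined, which can be longer than the transcript present, so the order is approximate. Within each experiment Hspa5 had the highest mean of the 10 in all 4 groups. It stood at 183 ± 43.6 CPM per kb in Klf5 ESCs and 208 ± 19.2 in GFP ESCs, and at 67.3 ± 30.3 after Klf5 siRNA and 56.7 ± 24.1 after scramble siRNA. Atf4 followed in ESCs at 154 ± 24.1 and 182 ± 25.4 CPM per kb, within the spread of Hspa5. In Klf5 siRNA embryos the order after Hspa5 was Xbp1 (38.8 ± 36.2 CPM per kb), Atf4 (31.2 ± 9.24) and Asns (21.6 ± 11.7), neighbours that overlapped in their spread. In scramble embryos it was Asns (53.4 ± 44.6), Atf4 (53.1 ± 13.7), Ddit3 (31.2 ± 21.2), Nupr1 (23.9 ± 8.32) and then Xbp1 (17.1 ± 10.4), with Hspa5, Asns and Atf4 within each other's spread. The place of Xbp1 in Klf5 siRNA embryos rested on embryo 4. Without it Xbp1 averaged 24.9 ± 13.6 CPM per kb, Atf4 28.1 ± 5.93 and Asns 25.4 ± 7.84 (SD, n = 5), within each other's spread. In ESCs Xbp1 was the lowest in GFP cells (7.54 ± 0.483 CPM per kb) and the second lowest in Klf5 cells (15.6 ± 1.35). Chac1 was the lowest in both embryo groups, at 0.428 ± 0.721 and 1.74 ± 2.22 CPM per kb.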

How the data were processed

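RNA was measured in 20 libraries, 4 of ESCs (TruSeq v2 reagents) and 16 of single embryos (SMARTseq-V4), per the labels' protocols. The authors deposited an estimated count (expected count) per Ensembl gene, without scaling; kallisto 0.46 and mm10 are named in the submitters' processing notes, and the annotation and the step to genes are not given in the sources used here. Estimates were not whole (tolerance 0.001) for Atf4 and Nupr1 in 4 of 4 ESC libraries and, of 16 embryo libraries, in 9 for Atf4, 10 for Nupr1, 11 for Ddit3 and 5 for Herpud1, so some of their reads were shared between transcripts of several genes. Symbols, positions and exon lengths come from GENCODE M21 (GRCm38; 29910 of 30265 identifiers matched) and promoter windows from RefSeq (GRCm38.p6, 10 of 10 genes matched).

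Counts were rounded (largest change of a total 0.000756%), kept where edgeR 4.0.16's filterByExpr passed them (minimum 10), normalised by TMM and compared by edgeR's robust quasi-likelihood F test, with Benjamini-Hochberg adjustment over all genes and a threshold of 0.05, in separate fits for ESCs (2 against 2) and embryos (6 against 10). The common biological coefficient of variation was 0.163 in ESCs and 0.739 in embryos. CPM use the scaled library sizes and log2 CPM a prior count of 2. The fits were tested on simulated data.

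The genes, lists and alternatives were chosen with earlier results of these data known. Named from the lists are up to 4 called genes by p, or the gene with the smallest p. Alternatives were RLE, upper quartile and total count scaling, DESeq2 1.42.0, limma 3.58.1 voom, the fit without a filter or with one at 5 CPM, a length offset (lowess span 0.3), mitochondrial percent or detected genes as a covariate, libraries left out and replicate blocks. Total count scaling, the crossed block, leaving out scramble 5 and 6 and levels per kilobase without Klf5 siRNA 4 were chosen after seeing the data.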

Additional observations from a re-analysis of the deposited data

Results flagged for a closer look

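5 values stood far from the rest of their group among 20 groups of embryo CPM values tested (10 genes, 2 groups). Each was flagged because its gap to the nearest other embryo was a large part of the range of the group. Chance flags about 1 in 20 only where values are normally distributed, and CPM can be skewed to high values. All 5 flagged values were the highest of their group. Ddit3 was 73.9 CPM in Klf5 siRNA embryo 4, with the next embryo at 32.8 CPM. Xbp1 was 352 CPM in the same embryo 4, with the next at 142 CPM. Nupr1 was 23.8 CPM in Klf5 siRNA embryo 6, with the next at 5.85 CPM, still under the lowest scramble embryo. Chac1 was 11.9 CPM in scramble embryo 5, with the next at 4.68 CPM. Hspa5 was 498 CPM in scramble embryo 7, with the next at 272 CPM. Klf5 siRNA embryo 4 thus held the highest Ddit3 and Xbp1 of its group together with its lowest Asns, 6.55 CPM, and the fewest genes with a count, 13114. The source of these values was not tested.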

How the results depend on the processing

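In embryos 2447 genes and 4 of the 10 genes passed. Leaving out 1 embryo gave 2103 to 2470 genes and 3 to 5 of the 10. Nupr1 passed in all 30 alternatives, Herpud1 in 28, Trib3 in 27, Atf4 in 24, Xbp1 in 7 and Asns in 3. A replicate block is limited to 12 embryos with a number found in both groups. With it 902 genes and 1 of the 10, Nupr1, passed. The same 12 embryos without the block gave 1423 genes and 2 of the 10, Nupr1 and Herpud1. Same-numbered embryos did not deviate together (correlations −0.11 to 0.11; 1 of 6, number 6, was closest to its own number), so the numbers do not pair them. The sign of Hspa5 turned with total count scaling (−0.17).

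In ESCs 444 genes and 1 of the 10 passed. Leaving out 1 library gave 1 (without GFP 1) to 998 genes (without Klf5 2) and 0 to 3 of the 10. DESeq2 gave 1435 genes and 2 of the 10, limma voom 115 genes, no filter 870 and a replicate block 155. The correlation of same-numbered ESC libraries was weak (−0.11), and a crossed block, chosen after seeing the data, gave 1475 genes and 3 of the 10. Among genes near 0, signs turned for Asns with upper quartile scaling (−0.0004) and a length offset (−0.0303), and for Chac1 (0.0509) and Nupr1 (0.0628) with total counts. With 1 library left out the log2 fold changes ranged over −0.73 to 0.16 for Trib3, −0.0853 to 0.11 for Asns, −0.74 to 0.45 for Chac1, −0.37 to 0.27 for Nupr1, −0.45 to 0.0449 for Hspa5 and −0.70 to 0.28 for Herpud1, so no direction is read from these 6. Where a call was lost or a sign turned, the cause was not tested. The fit of the same 12 embryos without the block cannot single out the smaller number of embryos. It also changed which scramble embryos were used, and kept 5 and 6. With 2 libraries a group in ESCs and a wide spread between embryos, small differences in these genes were not detectable.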

Other observations

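The stress chaperones outside the ER were mixed in embryos, where 12.0% of all genes tested rose and 7.74% fell. 1 of 11 cytosolic heat shock genes and 1 of 10 mitochondrial genes rose, near the share of all genes, and 0 and 2 fell. Among 11 tested cytosolic heat shock genes Hspb1, encoding a small heat shock protein, rose 3.36-fold, to 291 ± 127 CPM in Klf5 siRNA embryos against 86.7 ± 74.7 CPM in scramble embryos, and none fell by the edgeR test (2 at an unadjusted p under 0.05, 1 with DESeq2 and 1 with limma voom); the list median was −0.43, and the Hspb1 call was lost with an offset for gene length (1.18, edgeR adjusted p = 0.0503). Among 10 mitochondrial chaperone and protease genes Hspa9 fell 1.93-fold (124 ± 29.5 CPM against 240 ± 69.9 CPM) and Hspd1 1.90-fold (114 ± 15.1 CPM against 216 ± 60.7 CPM), both encoding matrix chaperones, while Clpp, a matrix protease gene, rose 2.25-fold; its call was lost with an offset for gene length (0.61, adjusted p = 0.180). In ESCs no heat shock gene passed (0 at an unadjusted p under 0.05, with DESeq2 or with limma voom), with Hspa4 at a log2 fold change of 0.23 (edgeR adjusted p = 0.324), and Htra2, encoding a mitochondrial serine protease, rose 1.61-fold (39.4 ± 0.907 CPM in Klf5 ESCs against 24.5 ± 0.373 CPM in GFP ESCs).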
